A study of Mus musculus with 3 samples.

Results

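Classical monocytes are the Ly6C-high monocytes of the mouse, and 374 of 7057 meningeal cells were taken as such. A cell was a droplet barcode with at least 500 UMIs (unique molecular identifiers, each standing for 1 captured RNA molecule), under 8.3% mitochondrial UMIs and a number of detected genes within the limits of the study's methods. A cell was a monocyte if Ly6c2, Ccr2, F13a1, Ms4a4c and Fn1 together made up at least 0.2% of its UMIs with at least 3 of these 5 markers detected. Cells were left out where MHC class II transcripts (H2-Aa, H2-Ab1, H2-Eb1 and Cd74) reached 1.5% of UMIs, where macrophage genes (Pf4, Mrc1 and Ms4a7) reached 0.15%, where Camp and Ngp reached 2%, where azurophil granule genes (Mpo, Elane, Prtn3 and Ctsg) reached 0.5%, or where Nkg7 and Ccl5 reached 0.5%. These values chose the cells, so the levels of these genes are given below as a description, with no test read from them.

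Classical monocytes are made in bone marrow, leave it through the chemokine receptor Ccr2, and enter tissues where they can become macrophages or dendritic cells. In the meninges, the membranes around the brain, they can also arrive from the marrow of the overlying skull. They share a progenitor and many transcripts with neutrophils, and their Ly6C-low counterparts, the nonclassical monocytes, carry the fractalkine receptor Cx3cr1 and patrol vessels.

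The cells came from male C57BL/6J mice 10 to 12 weeks old. Unstressed home cage (HC) mice gave 2 libraries and mice that had lived through 14 days of chronic social defeat (CSD) gave 1, each library being the pooled meninges of 4 mice, so that 8 HC and 4 CSD mice were used. CSD mice were those classed as stress-susceptible by behavior, the meninges were digested with collagenase D, and live nucleated cells were sorted with no marker for immune cells. With a single CSD pool, an effect of defeat and a property of that pool cannot be told apart. No p-value below measures the spread between CSD pools, and all concern these libraries only. Where 3 values follow each other, the HC libraries come first (replicate 1, then replicate 2) and CSD last.

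The libraries held 9891861, 8814690 and 10206236 UMIs. Barcodes of at most 100 UMIs, mostly droplets with no cell but with RNA from the suspension, took 7.87%, 24.1% and 5.48% of this depth, the largest share being in HC replicate 2. T and NK cells, which should lack monocyte transcripts, were used as a gauge of this free RNA. Judged by genes those cells do not make, free RNA was an estimated 28.8%, 23.2% and 22.1% of their UMIs, highest in HC replicate 1. No barcode was shared between libraries among the monocytes, and 8, 6 and 3 were shared among all cells by the 3 pairs of libraries.

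Monocytes numbered 110, 88 and 176. Their share was 4.23% of 2599 cells in HC replicate 1 (95% exact binomial interval 3.49 to 5.08), 5.17% of 1702 in HC replicate 2 (4.17 to 6.33) and 6.39% of 2756 in CSD (5.50 to 7.36). The CSD share was the highest of the 3 and lay 1.68 percentage points above the HC mean, where the SD of the HC libraries was 0.66. The intervals of CSD and HC replicate 2 overlapped, and those of CSD and HC replicate 1 did not. Intervals cover counting error only, and an exact two-sided permutation test of the 3 shares gave p = 0.333, the smallest that 1 library against 2 allows. Without fibroblast, olfactory and erythroid cells in the denominator the shares were 4.59%, 5.66% and 6.71%.

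Of the cells that met the marker criterion (163, 106 and 210), the MHC class II clause removed 28, 6 and 17. The azurophil clause removed 17, 5 and 10. All 5 markers were detected in 65, 56 and 115 monocytes. The 3 cells nearest to the marker limit from outside had marker shares of 0.192%, 0.197% and 0.197% of UMIs, and the 3 nearest from inside 0.201%, 0.202% and 0.203%. The median monocyte had 5202.5, 6018 and 6037 UMIs and 1699.5, 1907.5 and 1853.5 genes, with 2.16%, 2.08% and 2.04% mitochondrial UMIs. T and NK cells were shallower, with medians of 2329, 2661 and 2077 UMIs over 152, 102 and 175 cells.

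For all monocytes summed, the label was borne out by genes that the rule did not name. Since the cells were chosen on the same transcriptomes, no test was made. Levels are given as CPM, the UMIs of a gene as a fraction of all UMIs of the summed cells brought to a common total. The comparison here is with all other cells of the same library, on the log2 scale with 10 CPM added to both levels. Among genes outside the rule, Ms4a8a had the highest ratio, a mean of 2.79 over the 3 libraries, at 79.1, 88.2 and 137 CPM in monocytes. S100a4, a calcium-binding protein of motile cells, had a ratio of 2.60, and F10, which encodes coagulation factor X, had 2.57. Ms4a6c (2.54), the chemokine Ccl9 (2.14), the matrix proteoglycan Vcan (2.04) and Plac8 (1.95) were further known monocyte genes among the 15 with the highest ratios. Lyz2, encoding lysozyme, was the most abundant gene on the list of classical monocyte genes outside the rule, at 32649, 35098 and 28860.5 CPM against 3836, 4647 and 3700.2 in T and NK cells.

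**Figure D1:**
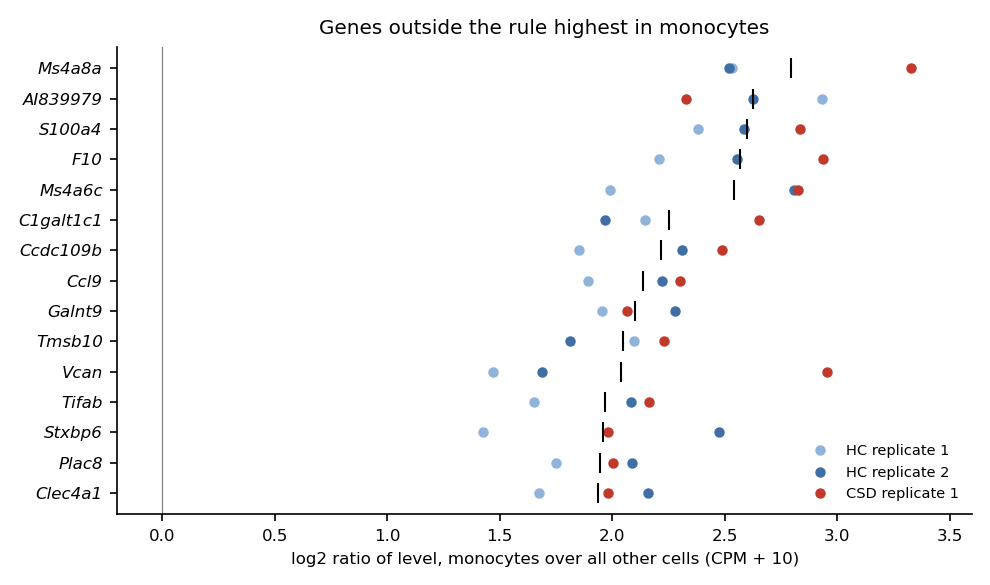
The 15 genes outside the rule with the highest ratio of monocyte level to the level in all other cells. Each point is 1 library, the tick is the mean of the 3, and the axis is the log2 ratio of CPM with 10 added. Every point lies above 1, and in F10 and Vcan the CSD library has the highest ratio.

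Markers of other cells were measured in the monocytes too. A list of 10 dendritic cell genes summed to 79, 78 and 42 CPM in monocytes, with Cd209a the most abundant and Clec9a at 0, and none of the 10 was detected in enough cells to be tested. The nonclassical list summed to 646, 752 and 764 CPM and was led by Pglyrp1, which neutrophils also make. S100a8 and S100a9, the dominant neutrophil transcripts, made up a median of 2.41%, 2.00% and 2.65% of the UMIs of a monocyte. They reached 5% in 7 monocytes, all in CSD, with a highest share of 35.5%. Scrublet, a doublet caller, marked 0, 0 and 8 monocytes, but these counts are not comparable: the automatic threshold was used in HC, while in CSD, where it marked 0.109% of cells, the top 5% of scores were taken.

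The 5 markers of the rule showed similar levels in the 3 libraries. Ly6c2, which encodes the Ly6C surface antigen, stood at 2409, 2606 and 2841 CPM, against 505, 573 and 501 in T and NK cells. Ccr2 stood at 358, 358 and 341 CPM. F13a1, a coagulation factor XIII subunit, stood at 682, 591 and 719 CPM. Ms4a4c stood at 366, 413 and 353 CPM, and Fn1, which encodes fibronectin, at 597, 417 and 541 CPM. None of the markers in CSD lay far from the range of the HC libraries.

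The monocytes were not uniform. Clustering them without the rule genes, with each gene centred within its library, gave 3 states. The genes that lead a state are the genes it was clustered on, so they describe it and were not tested. State 1 was led by Wfdc17, Clec4a3, Gngt2 and Ifi27l2a. State 2 was led by Hist1h2ap, Ube2c, Top2a and Mki67, genes of mitosis and chromosome packing. State 3 was led by Pcna, Dut, Hells and Mcm6, genes of DNA replication.

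State 1 had the highest Ccr2, with a mean over libraries of 461 CPM against 281 in state 2 and 202 in state 3. Ly6c2 ran the other way, from 2202 CPM in state 1 through 2763 in state 2 to 3430 in state 3. Prtn3, encoding the azurophil protease proteinase 3 of early myeloid cells, ran from 110 CPM in state 1 through 376 to 637 CPM in state 3, although the rule left out cells rich in such transcripts. The states are given by number, since no list set for them as a cell type was used. The monocyte label rests on the rule, and it was not tested whether cells of states 2 and 3 are precursors. Of immature neutrophils in these meninges, the paper proposes recent arrival from the skull or marrow cells carried over in dissection. Whether either holds for states 2 and 3 was not tested.

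State 1 held 70.0% of the monocytes of HC replicate 1 (exact interval 60.5 to 78.4), 71.6% of HC replicate 2 (61.0 to 80.7) and 55.7% of CSD (48.0 to 63.2). State 2 held 20.9%, 15.9% and 21.0%, and did not separate the groups. State 3 held 9.09% (4.45 to 16.1), 12.5% (6.41 to 21.3) and 23.3% (17.3 to 30.2), the highest share being in CSD. The cells of state 3 numbered 10, 11 and 41. Clustering again without the genes that differed between CSD and HC gave state 3 shares of 10.0%, 10.2% and 22.7% and state 1 shares of 69.1%, 72.7% and 57.4%. The CSD interval overlapped both HC intervals for state 1 and that of HC replicate 2 for state 3, and an exact two-sided permutation test gave p = 0.333 for both, the smallest that 1 library against 2 allows.

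**Figure D2:**
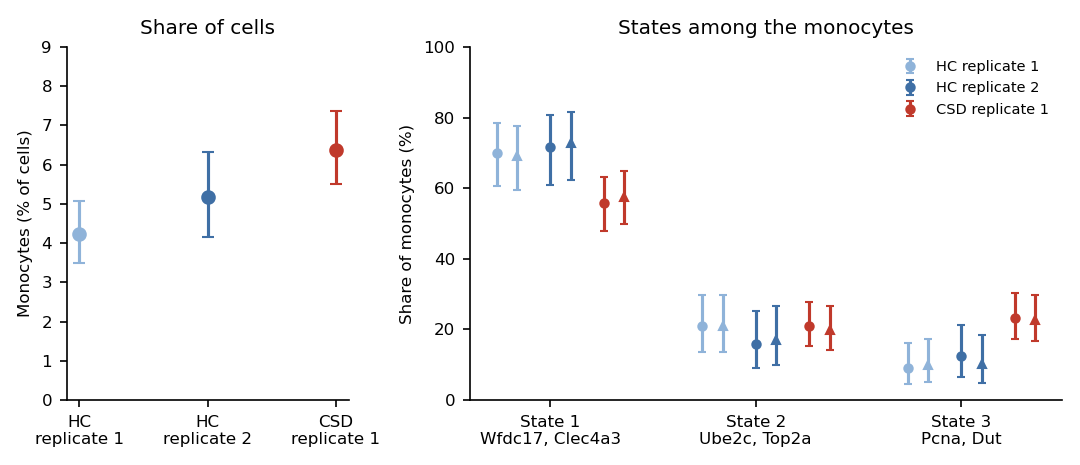
Left, monocytes as a percentage of cells in each library; right, the percentage of monocytes in each of 3 states. Circles use all genes outside the rule, triangles leave out genes that differed between CSD and HC, and bars are 95% exact binomial intervals; the CSD library has the lowest share of state 1 (55.7%) and the highest of state 3 (23.3%).

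To ask which transcripts differed with CSD, the UMIs of all monocytes of a library were summed, 670041, 612088 and 1296061 in all, and the sums were compared by edgeR's quasi-likelihood test. Only the 2 HC libraries inform the spread, which leaves 1 residual degree of freedom, and CSD is taken to vary as much as HC does. The spread used for a gene came almost wholly from all genes together (377 prior degrees of freedom). Small p-values below thus rest on that shared spread. Of 3807 genes seen in more than 15% of monocytes, 65 passed an adjusted p of 0.05, which is 1.71% of the genes tested. These were 22 rises (0.578%) and 43 falls (1.13%), and in 64 of them CSD lay beyond both HC libraries. The median log2 fold change of all genes tested was -0.01. The filter was on the share of all monocytes, and 4 rises and 9 falls passed it only through the group in which they were higher, the other group having a UMI in at most 15% of its cells. Such genes had to differ, so their log2 fold changes are given with no p. Of the 65, 6 were rule genes and are given only as a description. The calls depended on the processing: DESeq2 called 6 genes, and with no filter on the share of cells edgeR called 0 of 13612, with 486 at an unadjusted p under 0.05 against 376 of 3807 with the filter.

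Most of the 65 genes were also present in T and NK cells, which make some of them, such as Btg1 and Itgb2, themselves. In the group where each gene was higher, its level in T and NK cells was at least 50% of that in monocytes for 39 of the 43 falls and 12 of the 22 rises. In T and NK cells 41 of the falls were also lower in CSD and 19 of the rises also higher, and in empty droplets these counts were 42 and 19. The counts take in rule genes, as 38 of the 43 falls and 21 of the 22 rises were outside the rule. They also take in the 9 falls and 4 rises that passed the filter only through the group in which they were higher. All these counts are thus only a description. Genes with a T and NK level under 25% of the monocyte level were the rises Vcan, F10 and Gda, the rule gene Prtn3, and the falls Cd300a, Lpl and Lyl1. These genes, of which T and NK cells held least, are described first.

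**Figure D3:**
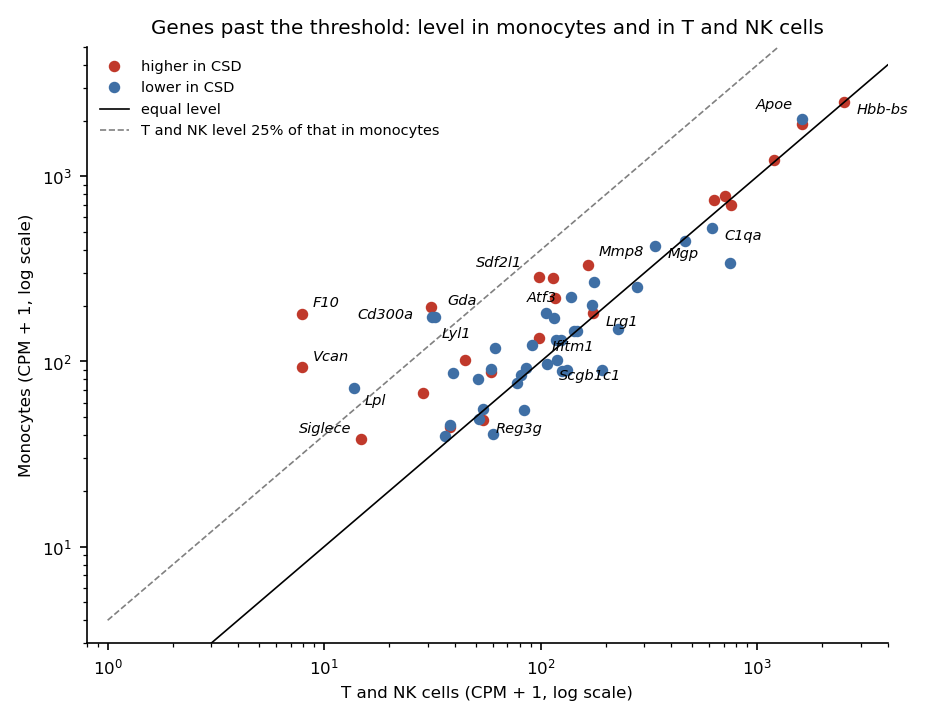
Level in monocytes against level in T and NK cells for the genes past the threshold outside the rule, both in CPM with 1 added on log axes; rises (red) are plotted at their CSD level and falls (blue) at their HC mean. Most points follow the line of equal level, while F10, Vcan, Gda, Cd300a, Lpl and Lyl1 lie above the dashed line, where the T and NK level is under 25% of the monocyte level.

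Vcan encodes versican, a large matrix proteoglycan that classical monocytes secrete. Its level was 22.4, 27.8 and 91.8 CPM in monocytes, from 15, 17 and 119 UMIs. The CSD library lay well above both HC libraries, and T and NK cells gave 0, 0 and 6.92 CPM. The log2 fold change was 1.86 ± 0.32 (SE). Vcan was seen in 13.1% of all HC monocytes and 42.6% of CSD monocytes and so passed the filter only through CSD. Border macrophages, the resident macrophages of the meninges, had no Vcan UMI in any library, and neutrophils had 0.822, 1.43 and 2.65 CPM. When every cell was thinned to 500 UMIs, Vcan was seen in 1.82%, 0% and 7.39% of monocytes and 0%, 0% and 1.14% of T and NK cells; unthinned shares were 10.0%, 17.0% and 42.6% against 0%, 0% and 1.71%. The gene (chr13:89655312-89742509, minus strand, mm10) was highest in state 1, at 34.3, 47.0 and 161 CPM. In a fit of state 1 alone its log2 fold change was 1.99.

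F10, made by the liver and by monocytes and macrophages, was present at 80.6, 99.7 and 181 CPM. In T and NK cells it was 2.23, 6.62 and 6.92 CPM, in neutrophils 9.04, 8.55 and 13.8 CPM and in border macrophages 1.71, 0 and 0 CPM. The monocytes of each library held the highest level among these cells, and CSD lay above both HC libraries. The log2 fold change was 1.00 ± 0.22 (SE; adjusted p = 0.00086 by edgeR), and it was 1.02 in state 1 alone (adjusted p = 0.0497). Within CSD it was higher in every state than in the same state of HC, at 207 CPM against 97.3 and 109 in state 1 and 156 against 92.9 and 81.2 in state 3. F10 lies on chr8:13037308-13056676 (plus strand, mm10).

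Gda encodes guanine deaminase, a purine-degrading enzyme. Its monocyte level was 115, 101 and 196 CPM, with 8.93, 13.2 and 30.0 CPM in T and NK cells. CSD was the highest, with a log2 fold change of 0.84 ± 0.22 (SE; adjusted p = 0.0102 by edgeR). Neutrophils held more Gda than monocytes, at 228, 226 and 222 CPM, with no shift toward CSD. In state 1 alone the change was 0.68 and did not pass (adjusted p = 0.40 by edgeR). Prtn3, a rule gene with no test read from it, stood at 240.3, 196 and 498 CPM in all monocytes.

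Cd300a, an inhibitory receptor of myeloid cells, had the lowest adjusted p (edgeR, all monocytes) among the falls scarce in T and NK cells, while Lpl fell further. Its level was 148, 199 and 82.6 CPM in monocytes and 31.3, 29.8 and 13.8 CPM in T and NK cells. CSD was the lowest library in both. The log2 fold change in monocytes was -1.07 ± 0.23 (SE; adjusted p = 0.00061 by edgeR), and in state 1 alone -0.91 (adjusted p = 0.0858).

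Lpl, the lipoprotein lipase that releases fatty acids from circulating lipid, stood at 77.6, 63.7 and 30.1 CPM. It fell by 1.24 ± 0.32 (SE) on the log2 scale (adjusted p = 0.0128 by edgeR), and by 1.58 in state 1 alone (adjusted p = 0.0143). Lyl1, a helix-loop-helix transcription factor of blood progenitors, stood at 182, 165 and 94.9 CPM. CSD was the lowest of the 3 for both genes. Lyl1 fell by 0.88 ± 0.23 (SE) on the log2 scale (adjusted p = 0.0106 by edgeR), against -0.82 in state 1 alone (adjusted p = 0.335).

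**Figure D4:**
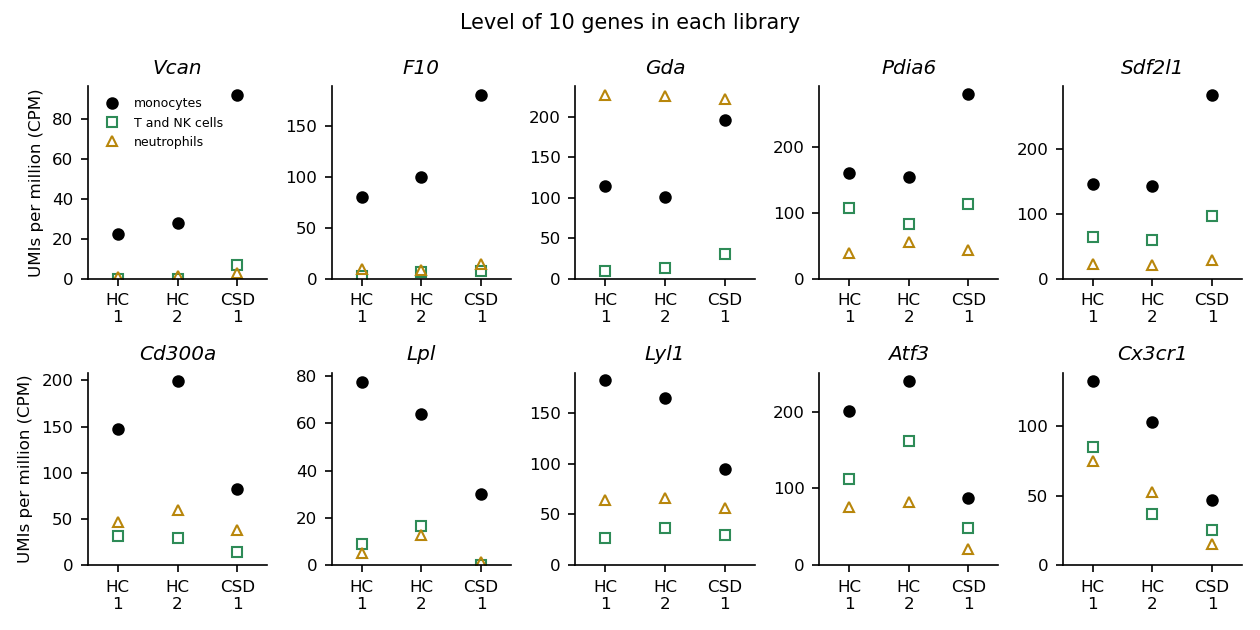
Level of 10 genes in CPM, each axis starting at 0, in monocytes (black circles), T and NK cells (green squares) and neutrophils (gold triangles) of HC replicate 1, HC replicate 2 and CSD replicate 1. In monocytes the CSD point is above both HC points for Vcan, F10, Gda, Pdia6 and Sdf2l1 and below both for Cd300a, Lpl, Lyl1, Atf3 and Cx3cr1.

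Proteins entering the endoplasmic reticulum are folded by chaperones such as Hspa5 (BiP), Hsp90b1 and Calr and by disulfide isomerases such as Pdia3 and Pdia6. Their genes are induced together when unfolded protein builds up, in part through a promoter element read by Atf6. A list of 20 such genes was drawn up after 2 of them were seen among the calls, so the list lends no support to those calls. Sdf2l1, an endoplasmic reticulum chaperone partner, stood at 146, 142 and 284 CPM in monocytes. Its level in T and NK cells was 64.7, 59.6 and 96.9 CPM. The CSD library was the highest in both, and in monocytes the log2 fold change was 0.97 ± 0.21 (SE; adjusted p = 0.000832 by edgeR).

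Pdia6 stood at 159.7, 154 and 280.1 CPM in monocytes and 107, 82.8 and 113 CPM in T and NK cells. Its log2 fold change was 0.83 ± 0.21 (SE; adjusted p = 0.0103 by edgeR). Of the 16 list genes tested, 15 had a positive log2 fold change and 2 passed, where 0.578% of all genes tested rose. Those 2 prompted the list, so their count is not read as a result. The list median was 0.39 beside -0.01 for all genes tested. The list summed to 1966, 2083 and 2868 CPM in monocytes, against 1672, 1772 and 1758 in T and NK cells and 925, 986 and 847 in neutrophils. The 3 T and NK values lay close together, while the monocyte value in CSD was well above both HC values. In state 1 alone Sdf2l1 was at 0.67 (adjusted p = 0.492 by edgeR) and Pdia6 at 0.70 (adjusted p = 0.341). Both genes were highest in state 3, with means of 287 and 265 CPM, the state whose share was highest in CSD; its part in the difference was not tested.

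The promoters of these genes can be searched for the endoplasmic reticulum stress element in its strict form, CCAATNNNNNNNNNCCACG, on both strands. The windows run from 250 bases before to 50 after each RefSeq start (GRCm38.p6). The element was found in 39 of 32851 windows (0.119%), and in 9 of the 18 list genes with a window. Among the 3807 genes tested it was in 8 of the 2957 with a window, namely Calr, Canx, Creld2, Dnajc3, Hnrnpa3, Hsp90b1, Hspa5 and Pdia6. Their log2 fold changes were 0.58, 0.28, 0.72, 0.24, 0.14, 0.33, 0.48 and 0.83, all positive. Of the 8, 1 passed (Pdia6), where 0.578% of all genes tested rose. Pdia6 was among the calls that prompted the list, and all of the 8 but Hnrnpa3 are list genes. Neither the signs nor the count is thus read as a result about the element. Sdf2l1 had no match in its window. The stretches around the match are shown for the called gene, Pdia6, beside Hspa5 and Calr, with the parts of the element outside its spacer in capitals.
Pdia6 (chr12:17266476-17266524, plus strand): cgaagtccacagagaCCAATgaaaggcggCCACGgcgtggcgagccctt
Hspa5 (chr2:34772010-34772058, plus strand): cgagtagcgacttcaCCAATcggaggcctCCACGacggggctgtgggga
Calr (chr8:84847060-84847108, minus strand, element on the opposite strand): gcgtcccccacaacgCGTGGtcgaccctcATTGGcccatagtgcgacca
A match is a description of the letters and was not tested as a binding site.

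Atf3, an early response transcription factor, stood at 201, 240.2 and 88.0 CPM in monocytes. Its level was 112, 162 and 48.4 CPM in T and NK cells and 75.6, 82.7 and 21.0 CPM in neutrophils. CSD was thus the lowest library in all 3 kinds of cell. The log2 fold change in monocytes was -1.33 ± 0.23 (SE; adjusted p = 4.18e-06 by edgeR), and -1.20 in state 1 alone (adjusted p = 0.00127). Egr1, another immediate early factor, stood at 40.3, 39.2 and 12.3 CPM (log2 fold change -1.69, passing the filter only through HC), and was higher in T and NK cells, at 62.5, 56.3 and 39.2 CPM. Of 22 tested immediate early and dissociation genes, 18 had a negative log2 fold change, Egr1 among them. Atf3 and Btg1 fell, Egr1 not being counted because of the filter, where 1.13% of all genes tested fell. The median of the 22, Egr1 included, was -0.38, and -0.58 without HC replicate 1 or -0.22 without HC replicate 2. Genes of this kind are also switched on while tissue is dissociated, and a part of that in the difference was not tested.

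Cx3cr1, the fractalkine receptor, stood at 133, 103 and 47.1 CPM. The log2 fold change was -1.34 ± 0.26 (SE; adjusted p = 5.38e-05 by edgeR), and -1.42 in state 1 alone (adjusted p = 0.00618). T and NK cells held 84.8, 36.4 and 25.4 CPM and border macrophages 393, 402 and 441 CPM. CSD was lowest in monocytes and in T and NK cells and highest in the macrophages. Of 7 tested nonclassical monocyte genes Cx3cr1 alone passed, where 1.71% of all genes tested did. The median of the 7 was -0.12, and it turned to 0.093 without HC replicate 2.

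Of 24 tested classical monocyte genes outside the rule, 11 were higher and 13 lower. No gene but Vcan, which passed the filter only through CSD, was past the threshold. The median was -0.08, and 0.028 without HC replicate 1 or -0.17 without HC replicate 2. The list summed to 52586, 54817 and 50957 CPM. Plac8 was at 2107, 2338 and 2582 CPM (log2 fold change 0.21 ± 0.20 SE, adjusted p = 0.834 by edgeR). Chil3, a chitinase-like protein of marrow-derived myeloid cells, was at 2797, 2451 and 3925 CPM, with a log2 fold change of 0.57 ± 0.19 (SE) that missed the threshold (adjusted p = 0.148 by edgeR). Ms4a8a was at 0.70 ± 0.23 (SE; adjusted p = 0.10).

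The study asked about type I interferon, so its target genes were described as a list. Ifitm3, which blocks virus entry and was the most abundant of them, stood at 3673, 4075 and 3396 CPM (log2 fold change -0.20 ± 0.20 SE, adjusted p = 0.839 by edgeR). Ifitm2 stood at 1089, 1085 and 1123 CPM (log2 fold change 0.04 ± 0.21 SE, adjusted p = 0.982). The CSD values of both lay close to the HC range. Of 20 tested interferon-stimulated genes, 8 were higher and 12 lower, and Ifitm1 alone passed, where 1.71% of all genes tested did. The list median was -0.25, and -0.16 without HC replicate 2. Ifitm1 rose from 31.3 and 42.5 to 133 CPM (log2 fold change 1.84 ± 0.26 SE, adjusted p = 5.97e-09 by edgeR), but T and NK cells showed 35.7, 23.2 and 96.9 CPM and neutrophils 117, 107 and 461. Of 9 tested MHC class I genes 3 were higher and 6 lower.

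MHC class II genes present peptides to CD4 T cells, and 4 of them served to exclude cells. The cells were thus selected on these transcripts, and no count of calls is read from the list. H2-DMb2, outside the rule, stood at 25.4, 52.3 and 14.7 CPM and passed the filter only through HC. The 8 genes of the list summed to 3295, 3362 and 1383 CPM in monocytes. In neutrophils they summed to 3157, 3342 and 1211 CPM and in T and NK cells to 7339, 5746 and 5142. H2-Ab1 stood at 875, 778 and 326 CPM in monocytes and 919, 867 and 337 in neutrophils. H2-Aa stood at 559.7, 572 and 205 CPM in monocytes and 623, 668 and 230.1 in neutrophils. For the list and both genes CSD was the lowest library in monocytes, in neutrophils and in T and NK cells. In empty droplets the list summed to 12337, 12122 and 5680 CPM, again lowest in CSD. The part of free RNA in these differences was not tested. In border macrophages, which were not chosen for low class II, the list summed to 21458, 34972 and 38177 CPM, highest in CSD.

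Apoe, encoding a lipid carrier abundant in border macrophages, stood at 2589, 1483 and 840.2 CPM in monocytes and 2148, 1053 and 717 CPM in T and NK cells. Its log2 fold change was -1.30 ± 0.22 (SE, adjusted p = 2.72e-06 by edgeR), and -0.79 without HC replicate 1. All 7 tested genes of the list had a negative log2 fold change and genes past the threshold included the complement genes C1qa, C1qb and C1qc and the receptor Trem2. Pf4, 1 of the 7, was a rule gene with no test read from it. It stood at 97.0, 13.1 and 15.4 CPM, and its log2 fold change of -1.88 turned to 0.27 without HC replicate 1. The list summed to 4610, 2590 and 1505 CPM in monocytes, 4356, 2037 and 1444 in T and NK cells, and 63133, 61135 and 70242 in border macrophages. In monocytes the HC libraries differed from each other by more than HC replicate 2 did from CSD, and border macrophages numbered 190, 16 and 60. Without HC replicate 1 the median log2 fold change of the list was -0.69 in place of -1.30.

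The fibroblast gene Mgp had the largest fall among genes with a level above 0 in CSD. Mgp, a matrix calcification inhibitor, stood at 454, 389 and 41.7 CPM in monocytes and 304, 371 and 25.4 in T and NK cells (log2 fold change in monocytes -3.35 ± 0.27 SE, adjusted p = 1.02e-26 by edgeR). Dcn, encoding decorin, fell by 2.00 on the log2 scale (adjusted p = 4.98e-08 by edgeR). The list of fibroblast genes summed to 733, 570 and 119 CPM in monocytes and 572, 590 and 115 in T and NK cells. Scgb1c1, a secretoglobin, was counted in 10 and 109 UMIs in the HC libraries and in 0 UMIs in CSD, or 14.9, 178 and 0 CPM. Its level in T and NK cells was 29.0, 182 and 0 CPM. In both kinds of cell CSD was the lowest library for Mgp, Dcn and Scgb1c1.

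Among the rises were 4 hemoglobin genes of red cells and 4 neutrophil genes. Hbb-bs stood at 866, 1528 and 2535 CPM in monocytes and 882, 1431 and 2505 in T and NK cells (log2 fold change in monocytes 1.09 ± 0.20 SE, adjusted p = 2.39e-05 by edgeR). With the empty-droplet profile subtracted its log2 fold change was -9.68, and Hbb-bt, Hba-a1 and Hba-a2 also turned negative. Hba-a1 and Hba-a2, and Hbb-bs and Hbb-bt, are near-identical copies, so the split of UMIs within each pair is uncertain. The median of the erythroid list was 0.95, and 0.54 without HC replicate 1. Of 15 tested neutrophil genes 13 were higher and 4 rose (Lrg1, Mmp8, Wfdc21 and Lcn2), with a median of 0.47. Of all genes tested 0.578% rose. The 7 monocytes with S100a8 and S100a9 over 5%, all in CSD, were left in. The 15 include 2 rule genes, on which cells were left out, so the count and median rest in part on the rule. The list summed to 34578, 32453 and 44593 CPM in monocytes and 33928, 32226 and 39129 in T and NK cells. Lrg1, a secreted glycoprotein of the acute phase, stood at 50.7, 75.2 and 181 CPM in monocytes and 35.7, 89.4 and 173 in T and NK cells. Reg3g, an antimicrobial lectin, was at 10.4, 0 and 47.1 CPM in monocytes and 0, 0 and 53.1 in T and NK cells. It was seen in 5.45%, 0% and 29.0% of monocytes and passed the filter only through CSD; its log2 fold change was 3.07, and 8.50 without HC replicate 1.

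Mmp8, the neutrophil collagenase, stood at 122, 189.5 and 333 CPM in monocytes and 127, 156 and 164 in T and NK cells. Neutrophils held more, at 1060.3, 1420.3 and 1389 CPM. The level in CSD monocytes was above that of the T and NK cells, while the HC levels were close to it. The log2 fold change in monocytes was 1.09 ± 0.21 (SE; adjusted p = 6.92e-05 by edgeR), and 1.28 in state 1 alone (adjusted p = 3.84e-05).

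Further rises were the mRNA export factor Alyref, at 38.8, 52.3 and 101 CPM, and the DNA polymerase epsilon subunit Pole3, at 26.9, 32.7 and 66.4 CPM. Their adjusted p was 0.00279 and 0.0326 by edgeR, with T and NK levels in CSD of 43.8 and 27.7 CPM. Siglece, an inhibitory lectin of myeloid cells, and Nolc1, a nucleolar protein, passed the filter only through CSD. Siglece stood at 11.9, 16.3 and 37.0 CPM, and Nolc1 at 10.4, 26.1 and 43.2 CPM with 36.9 CPM in T and NK cells of CSD. Nolc1 had a log2 fold change of 1.25, which was 0.75 without HC replicate 1. The CSD level was the highest for each of the 4.

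Sparc and Tmem119, which microglia express, and Id3, an inhibitor of helix-loop-helix factors, passed the filter only through HC. Sparc stood at 146, 114 and 20.1 CPM in monocytes and 116, 129 and 23.1 in T and NK cells (log2 fold change in monocytes -2.71). Tmem119 stood at 50.7, 37.6 and 15.4 CPM in monocytes and 44.7, 29.8 and 9.23 in T and NK cells (log2 fold change in monocytes -1.53). The B cell receptor genes Cd79a and Cd79b fell. Cd79b stood at 79.1, 163 and 64.8 CPM, and its log2 fold change of -0.89 (adjusted p = 0.024 by edgeR) was -0.34 without HC replicate 2. Cd79a, at 53.7, 113 and 27.8 CPM, had a log2 fold change of -1.57 (adjusted p = 0.000273 by edgeR), which was -0.999 without HC replicate 2. The B cell list summed to 216, 457 and 173.6 CPM in monocytes and 248, 404 and 150 in T and NK cells. CSD was the lowest library in both kinds of cell for Sparc, Tmem119 and the B cell list. Id3 stood at 56.7, 52.3 and 9.26 CPM in monocytes and 40.2, 66.2 and 23.1 in T and NK cells (log2 fold change in monocytes -2.55). Itgb2, the beta chain of leukocyte integrins, stood at 119, 139 and 72.5 CPM in monocytes and 105, 129 and 99.2 in T and NK cells (log2 fold change in monocytes -0.84, adjusted p = 0.0319 by edgeR). The part of free RNA in these differences was not tested beyond the values given.

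Of 23 tested cell cycle genes 16 were higher, with a median of 0.21. In state 1 alone 10 of them were tested, with a median of 0.078. The part of the states' shares in this was not tested. Of 24 tested oxidative phosphorylation genes 19 were higher, with a median of 0.11; it was 0.26 without HC replicate 1. Of 7 tested coagulation and matrix genes, of which 2 were rule genes, F10 rose and Timp2 fell, where 1.71% of all genes tested passed. Vcan, which passed the filter only through CSD, is not counted. The median of the list was 0.08, and 0.31 without HC replicate 1 or 0.026 without HC replicate 2. The first is the value of the rule gene Fn1 and the others are those of the rule gene F13a1, so they are only a description.

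The same libraries hold neutrophils, which allows the CSD effect to be compared between cell types within each library. Neutrophils were cells with at least 5% of UMIs from S100a8 and S100a9 and few monocyte markers, and numbered 766, 537 and 1144. An interaction on the 6 sums, with library as a block, was past the threshold for 91 of 1338 genes (6.8%), 57 with a higher and 34 with a lower effect in monocytes. Of the 57, 31 were ribosomal protein or mitochondrial genes. Here too only the HC libraries inform the spread, by how they differ between the cell types. Small p-values of the interaction thus rest in part on a spread shared across genes, and CSD is taken to vary as HC does. When scaling factors were computed within each cell type, 46 genes were called, 25 higher and 21 lower, all of them among the 91. With the empty-droplet profile subtracted no difference passed.

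The largest difference was in Wfdc17, a secreted protease inhibitor of myeloid cells. It stood at 787, 683 and 897 CPM in monocytes and at 173, 128 and 808 CPM in neutrophils. Its log2 fold change was 0.28 in monocytes and 2.47 in neutrophils, a difference of -2.20 ± 0.13 (SE; adjusted p = 5.59e-14 by edgeR). Neutrophils in CSD thus reached the level that monocytes, all states summed, already had in HC. Wfdc17 led state 1, whose share of the monocytes was lowest in CSD. It stood at 1216, 1080 and 1540 CPM in state 1 and at 318, 184 and 489 CPM in the other monocytes. The part of the states' shares in the differences between cell types was not tested. Ifitm2 and Ifitm3 also differed, by -0.69 (adjusted p = 1.62e-04 by edgeR) and -0.65 (adjusted p = 1.87e-05): in neutrophils Ifitm2 stood at 619, 612 and 975 CPM and Ifitm3 at 1281, 1507 and 1819 CPM. In all 3 libraries the monocyte level of both genes was above that of neutrophils. In neutrophils alone the log2 fold changes were 0.73 ± 0.16 and 0.45 ± 0.15 (SE). Neither passed with the filter on the share of cells, while both passed in a fit of neutrophils with no such filter.

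Chaperone genes differed in the other direction. The difference was 0.85 for Calr (adjusted p = 0.0077 by edgeR), 0.74 for Hspa5 (adjusted p = 0.0231), 0.72 for Pdia3 (adjusted p = 0.0266) and 0.66 for Hsp90b1 (adjusted p = 0.0388). Calr stood at 189.5, 240.2 and 321 CPM in monocytes and 90.8, 110.5 and 79.6 CPM in neutrophils. CSD was the highest library in monocytes and the lowest in neutrophils for Calr, Hspa5, Pdia3 and Hsp90b1, although none of the 4 passed in monocytes alone. Mmp8 (0.86, adjusted p = 0.000404 by edgeR) and Gda (0.81, adjusted p = 0.0149) had a higher effect in monocytes, and Lyl1 a lower one (-0.74, adjusted p = 0.0439). With scaling factors within each cell type Hspa5 and Pdia3 (adjusted p = 0.067 by edgeR for both), Hsp90b1 (0.0804) and Lyl1 (0.0849) did not pass, and Calr (0.0342), Gda (0.0481) and Mmp8 (0.0152) did.

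**Figure D5:**
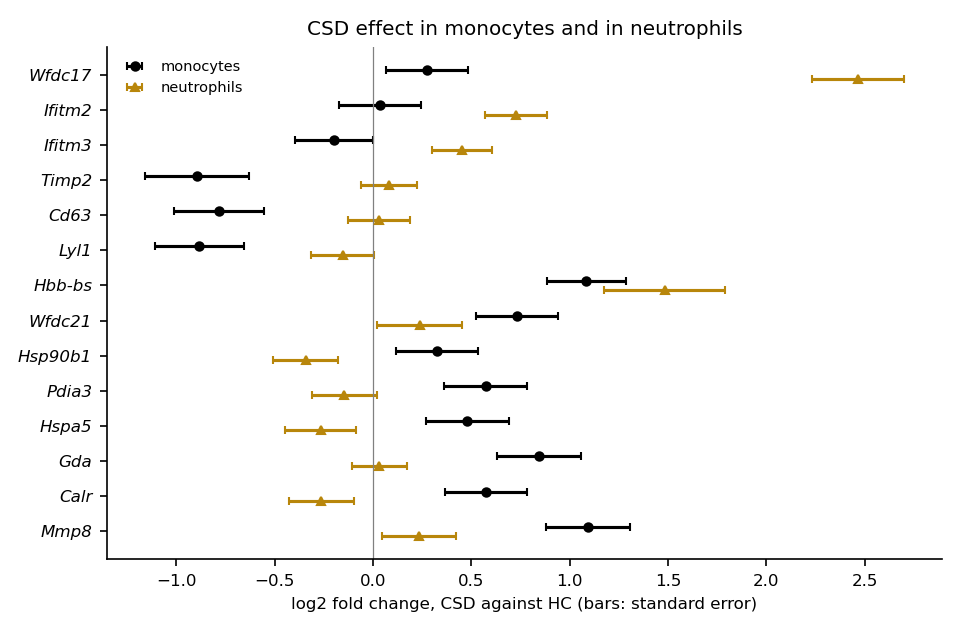
Log2 fold change of CSD against HC in monocytes (black circles) and neutrophils (gold triangles) for 14 genes whose difference passed the threshold; bars are the standard error of each fold change. Wfdc17, Ifitm2 and Ifitm3 lie further right in neutrophils, and Calr, Hspa5, Pdia3, Hsp90b1, Gda and Mmp8 further right in monocytes.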

How the data were processed

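Per the labels and the study's methods, meningeal cells were sorted as live nucleated singlets and captured with 10x 3' chemistry on separate lanes of 1 chip. The deposited values are counts of UMIs per gene and barcode, made by the authors with Cell Ranger 2 (mm10, per the submitters' processing notes) and not normalized or filtered; their annotation release was not given in the sources used here. All barcodes and 27998 genes were present, and the number after the hyphen of a barcode was taken as the library number of the labels. Cells were called by the stated limits on UMIs, genes and mitochondrial share rather than by a test against empty droplets, no doublets were removed in the main analysis, and free RNA was left in. The members and the gene lists were chosen with earlier results of these data known.

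UMIs were summed per library and tested with edgeR 4.0.16 (R 4.3.3; TMM, glmQLFit and glmQLFTest, two-sided, Benjamini-Hochberg adjustment over all genes tested). The difference between cell types was an interaction on 6 sums. T and NK cells had at least 0.3% of UMIs from Cd3d, Cd3e, Cd3g, Trbc1, Trbc2, Nkg7 and Ccl5. Border macrophages had at least 0.15% from Pf4, Mrc1 and Ms4a7. States were Leiden clusters (scanpy 1.11.5; resolution 0.5, 15 neighbours, 20 components, 1000 variable genes). The monocyte fit was run on simulated data in which 200 of 3807 genes were changed. It recovered 51.5% of the 200, with 3 false calls. CSD was simulated with the same spread as HC, so this could not check the single CSD pool.

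Genes named were drawn from the rule's markers, Ifitm2, Ifitm3, H2-Aa and H2-Ab1, and the 15 genes highest over other cells. They were also drawn from the 10 largest rises and 10 largest falls past the threshold with CSD beyond both HC libraries. The 3 most abundant and all called genes of each list were a further source. Not every gene of these sets is named. Genes called in the interaction, those with a low T and NK level and the chaperone list were chosen after their values were seen. Alternatives were RLE scaling, DESeq2 1.42.0, no filter on the share of cells, other cell limits, Scrublet, subtraction or omission of free RNA, thinning to 500 UMIs, state 1 alone, and leaving out each HC library. Sequences and gene starts are from RefSeq (GRCm38.p6), and gene coordinates are those of GENCODE on mm10. Some results are not reported here.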

Additional observations from a re-analysis of the deposited data

Results flagged for a closer look

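For the genes named here the CSD effect differed between monocytes and neutrophils by the interaction test (edgeR, adjusted p under 0.05). The difference, monocytes minus neutrophils on the log2 scale, was -2.20 for Wfdc17, -0.69 for Ifitm2 and -0.65 for Ifitm3. It was -0.97 for Timp2, an inhibitor of matrix proteases, -0.81 for the lysosomal membrane protein Cd63, -0.74 for Lyl1, -0.39 for Lyz2, -0.59 for Ifi27l2a, -0.45 for Hist1h2ap and -0.42 for Alox5ap. Among hemoglobin genes it was -0.40 for Hbb-bs, -0.66 for Hbb-bt, -0.40 for Hba-a1 and -0.58 for Hba-a2. The effect was higher in monocytes by 0.86 for Mmp8, 0.85 for Calr, 0.81 for Gda, 0.74 for Hspa5, 0.72 for Pdia3, 0.66 for Hsp90b1 and 0.50 for Wfdc21. With scaling factors within each cell type Timp2 (adjusted p = 0.0609 by edgeR), Lyl1 (0.0849), Hba-a1 (0.0757), Hist1h2ap (0.0788), Hspa5 (0.067), Pdia3 (0.067) and Hsp90b1 (0.0804) did not pass, and with the empty-droplet profile subtracted no gene tested passed. Wfdc17 and Ifi27l2a were among the genes leading state 1 and Hist1h2ap led state 2, and the part of the states' shares was not tested. Both cell types come from the same 3 libraries, so the single CSD pool stands behind each of these differences.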

How the results depend on the processing

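No paired analysis was possible because HC and CSD share only replicate number 1, and with 1 CSD library neither that library nor the spread within CSD could be checked. The count of 65 genes past the threshold was 6 with DESeq2 (all lower in CSD: Mgp, Sparc and the rule genes H2-Ab1, H2-Aa, H2-Eb1 and Cd74), 0 with no filter on the share of cells, 1 with a marker share of at least 0.4% (Mgp), 7 with the empty-droplet profile subtracted, 7 with cells thinned to 500 UMIs and 38 with cells of state 1 alone, of which 33 were among the 65; the last was added after seeing the data. RLE scaling, cells of at least 1000 UMIs, removal of Scrublet calls, no MHC class II clause, S100a8 and S100a9 under 5%, and omission of genes changed in empty droplets gave 62 to 77. The interaction count of 91 was 2 with DESeq2, 0 with subtraction and 46 with scaling within each cell type, the last added after seeing the data. Subtraction reversed Ifitm2 (-0.084), Hbb-bs (-9.68), Hba-a1 (-8.53), Hba-a2 (-7.84), Hbb-bt (-8.77) and S100a5 (5.97). Reg3g was 8.50 without HC replicate 1, where 1 of the remaining libraries has no UMI of it. The excess of the CSD share over HC ran from 1.22 to 2.15 points without either HC library. The causes of these changes were not tested. Among the genes with a low T and NK level, subtraction left Vcan at 1.84, F10 at 0.89, Gda at 0.88, Cd300a at -1.16, Lpl at -1.25 and Lyl1 at -0.98, none of them past the threshold.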

Other observations

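Some further groups with a role in monocyte function are given by their values. Of all genes tested 1.71% were past the threshold, so in groups of this size no count of calls is read. Of 12 tested myeloid transcription factors 4 were higher in CSD and 8 lower, with a median log2 fold change of -0.11 that was -0.018 without HC replicate 1; the most abundant was Spi1, which encodes PU.1, with a log2 fold change of 0.06. Of 15 tested NADPH oxidase and antioxidant genes 11 were higher, with a median of 0.11 that was 0.069 without HC replicate 1. Of 15 tested inflammatory mediators 4 were higher and 11 lower, with a median of -0.11 that turned to 0.071 without HC replicate 2, while Il10 and Nos2 had no UMI in the monocytes. Alox5ap, needed for leukotriene synthesis, led these at 1248 and 1395 CPM in the HC libraries and 1456 in CSD. Of 29 tested actin cytoskeleton genes 18 were higher, with a median of 0.10.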
